A study of Arabidopsis thaliana with 204 samples.

Results

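The leaf tip was compared with the petiole of the same kind of Arabidopsis thaliana leaf under white light (WL) alone. The comparison took the 96 WL samples collected at 60, 80, 100, 120, 140, 160, 180 and 300 min out of the 204 samples of the series, namely 32 samples of the leaf tip, 32 of the abaxial (lower) side of the petiole and 32 of its adaxial (upper) side, with 4 samples for each section and time point. All plants were Col-0 wild type grown in short days under white light with a high red to far-red ratio, and none of these samples received far-red light on the tip. Each sample pooled the material of several leaves, with 4 biological replicates per group, and p-values measure the spread between such pools. RNA was read by strand-specific sequencing of polyadenylated transcripts (BrAD-seq), and levels are given as the normalized read counts deposited by the authors, that is, reads on a gene after division by the size factor of the library. The series was made to study a response to far-red light at the tip, and the samples used here are its untreated controls, which show how the sections differ before any such treatment.

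The blade of a leaf is its photosynthetic and sugar-exporting part, with mesophyll packed with chloroplasts, stomata and fine veins in which sugar is loaded into the phloem. The petiole carries the vascular strands to the stem and bends the leaf by unequal elongation of its upper and lower sides, so that cell wall-loosening enzymes and hormones matter there. Blade and petiole identity are set by transcription factors, among them the CINCINNATA-type (CIN) TCP factors and class II KNOX factors of the maturing blade and the BLADE-ON-PETIOLE (BOP) factors of the leaf base. All values come from pieces of tissue, in which fewer cells of a type and less RNA per cell cannot be told apart.

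Libraries held 1027576 to 4364837 reads assigned to genes. The median was 1729130 for leaf tips, 2843256.5 for abaxial and 2271227 for adaxial sides. After each library was thinned to 1027576 reads, 18516 to 18938 genes were detected per leaf tip sample, with a median of 18642.5, against medians of 19240 in abaxial and 19410.5 in adaxial samples. The 10 most abundant nuclear genes took 6.63 to 9.26% of the nuclear reads of a leaf tip sample and at most 5.13% of those of a petiole sample. Reads of organelle genes took a median of 6.15% for leaf tips, 3.20% for abaxial and 4.08% for adaxial sides. The section was the main source of variation between the samples. The first principal component took 54.3% of the variance, and the leaf tip lay at 93.5 to 113.6 on it, the adaxial petiole at -46.1 to -28.4 and the abaxial petiole at -77.5 to -56.9. The adaxial side thus lay between the leaf tip and the abaxial side, with no overlap. The second component, with 7.11% of the variance, parted the petiole sides, and the third, with 5.61%, ran with time.

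**Figure D1:**
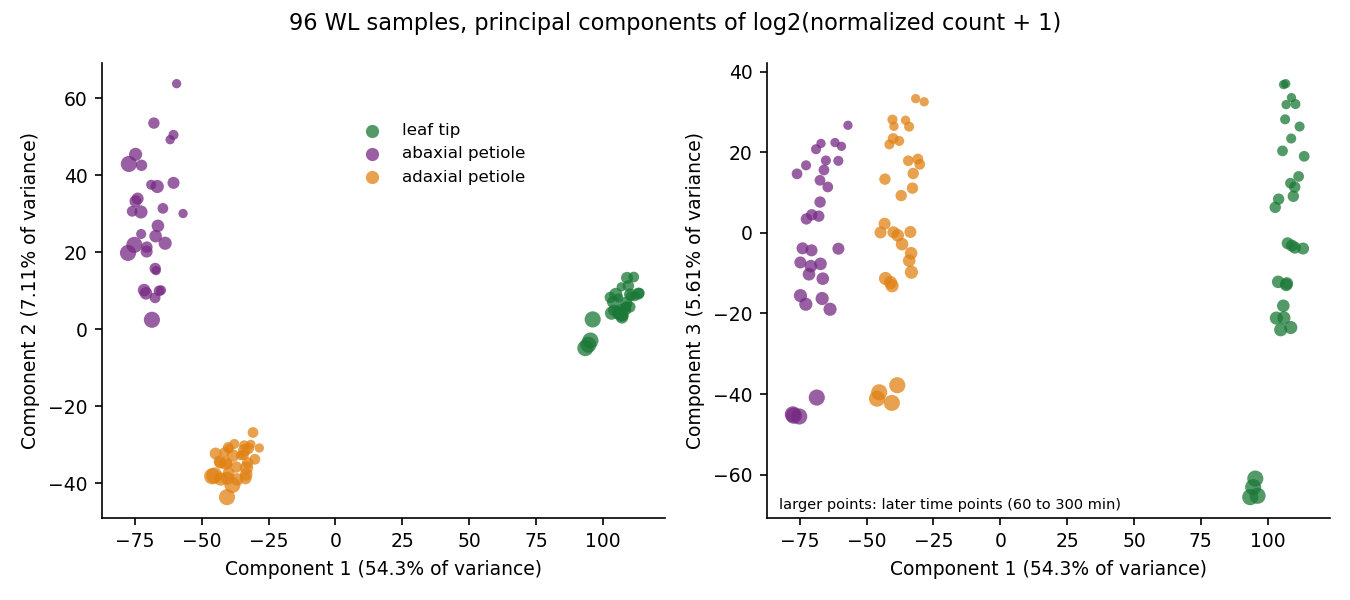
Principal components of the log2 values of 96 WL samples, with component 1 (54.3% of the variance) against component 2 (7.11%) on the left and component 3 (5.61%) on the right, in arbitrary units. Each point is a sample, coloured by section and larger at later times. Leaf tip samples sit above 93 on component 1 and all petiole samples below 0, and the samples of 300 min lie lowest on component 3 in every section.

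A total of 19920 genes had a mean normalized count of at least 1 and were tested with limma on log2 values. A gene was called where its adjusted p was below 0.05 and its level differed more than 2-fold, which is a log2 difference beyond 1, between the leaf tip and the mean of both petiole sides, averaged over the 8 time points. By this rule 2289 genes (11.5% of those tested) were higher and 2854 genes (14.3%) were lower in the leaf tip. The counts of called genes in each list are to be read beside these shares. An adjusted p below 0.05 alone was reached by 16935 genes. The 32 leaf tip samples did not overlap with the 64 petiole samples for 864 genes that were higher (4.34% of those tested) and 634 genes that were lower (3.18%). Of the calls, 2137 of the higher and 2639 of the lower ones kept their direction against each petiole side at each time point. The median log2 difference over all genes was -0.08. Scaled to total reads on genes, it was -0.43, with 1487 genes higher and 4502 lower, so the balance of higher and lower calls depended on the scaling.

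A section was taken to be at the floor for a gene when none of its libraries had more than 3 reads, and the fold is then given only as a lower bound against 3 reads per library. The petiole was at the floor for 128 of the genes called higher, and the leaf tip for 550 of those called lower. Such genes passed the filter on the mean mainly through the other section, so their calls follow in part from it. SWEET11, a sucrose exporter of the phloem parenchyma, had 203, 281 and 358 normalized counts as lowest, median and highest in the leaf tip, against 0, 0.494 and 6.41 in the petiole. This gap was the widest among the genes called higher, and the log2 difference was 7.42 (SE 0.15, adjusted p = 3.27e-57). WNK3, a protein kinase of the With No Lysine family, was at 0 in all 32 leaf tip samples and had 29.5, 49 and 86.8 counts in the petiole. It was at least 11-fold lower in the leaf tip, and its gap was the widest among the genes called lower.

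The 12 largest differences in each direction were taken among called genes without overlap between leaf tip and petiole samples. Lack of overlap is therefore part of the choice and no result for them. Of the 12 genes with the largest positive differences, 7 have no symbol in the annotation. AT3G05730, which encodes a defensin-like protein, had 681, 946 and 1205 counts in the leaf tip and 0, 0 and 33.4 in the petiole. Its log2 difference of 9.13 (SE 0.22) was the largest of all. AT1G66100, a thionin, had 229, 614 and 1009 counts in the leaf tip and 0, 5.51 and 37.6 in the petiole. Both encode small proteins of families known for antimicrobial activity. NGA1, a NGATHA factor of the B3 family known to shape the margins of lateral organs, had 117, 157 and 231 counts in the leaf tip against 0, 0 and 4.28 in the petiole. AT1G23130, which encodes a member of the polyketide cyclase and lipid transport superfamily, differed by 7.98, and the glutaredoxin AT2G47880 by 6.56. The TRAF-like neighbours AT2G32880 and AT2G32870 differed by 7.43 and 6.96, and reads that the counting could not split between such similar genes would affect both. The other genes of this set were AT3G16670, a pollen Ole e 1 family protein, CORI3, a cystine lyase induced by the jasmonate mimic coronatine, DES1, a cysteine desulfhydrase, and CRK21, a receptor-like kinase, with log2 differences of 6.46 to 8.73.

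At the other end, 3 of the 12 largest negative differences belonged to enzymes of anthocyanin synthesis and transport. AT3G46490, a 2-oxoglutarate-dependent oxygenase, had 0, 0 and 9.18 counts in the leaf tip against 201, 289 and 444 in the petiole, a log2 difference of -7.93 (SE 0.09). LUP1, which makes the triterpene lupeol, had 0, 0 and 4.57 counts in the leaf tip and 130, 184 and 344 in the petiole, and was at least 41-fold lower. For both genes the leaf tip and petiole samples did not overlap, which was part of the choice of the 12. AT3G13980, a SKI/DACH domain protein, and AT1G31710, a copper amine oxidase, were at the floor in the leaf tip and at least 46.8-fold and 47-fold lower. LSH4, a boundary-expressed nuclear protein, the gibberellin-regulated AT2G14900 and the kinase-like AT1G60060 had medians of 0 in the leaf tip and of 134, 154 and 161 in the petiole. MLP28, a major latex protein-like gene, split the petiole as well, with medians of 2.77 counts in the leaf tip, 89.9 on the abaxial and 772 on the adaxial side. PBP1, a jacalin-related lectin that binds the beta-glucosidase PYK10, differed by -6.95. AT5G22580, a stress-responsive A/B barrel protein, was abundant in the petiole, with 8.45, 19.3 and 32 counts in the leaf tip and 732, 1370 and 2536 in the petiole.

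**Figure D2:**
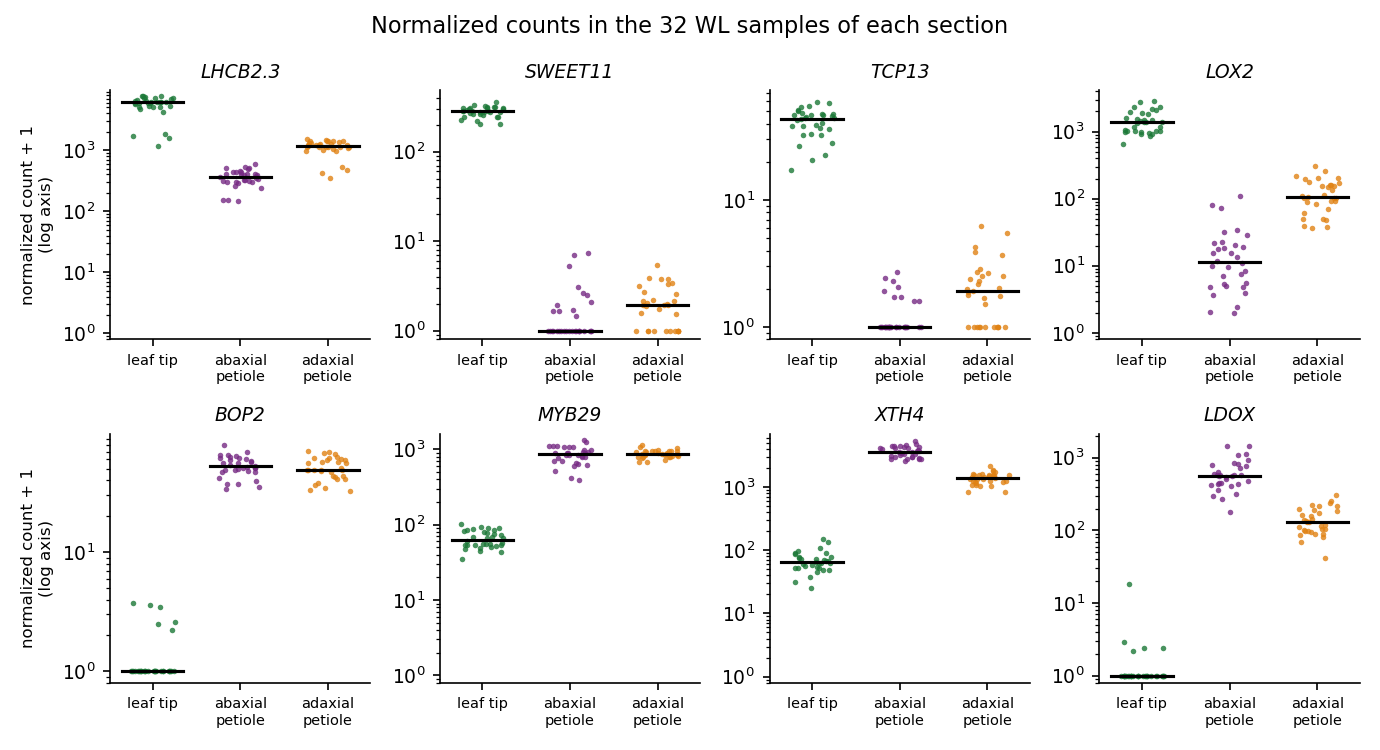
Normalized count plus 1 on a log axis for 8 genes by section (leaf tip, then abaxial and adaxial petiole), with 32 WL samples in each section as points and the median as a bar. LHCB2.3, SWEET11, TCP13 and LOX2 were higher and BOP2, MYB29, XTH4 and LDOX lower in the leaf tip. LHCB2.3 alone among them overlapped, since its samples of 300 min were low in every section.

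Genes of the chloroplast's photosynthetic machinery were higher in the leaf tip across the list. Of the 47 nuclear genes for photosystem subunits, antenna proteins and the small subunit of Rubisco (RBCS), 46 were called higher and 0 lower, with a median log2 difference of 1.83 against -0.08 for all genes. The leaf tip did not overlap with the petiole for 40 of them. Their summed reads took a median of 17.6% of the nuclear reads in the leaf tip and 6.20% in the petiole. The exception was LHCB4.3, an isoform of the minor antenna protein CP29, with a log2 difference of 0.64 and medians of 80.2 in the leaf tip, 24.7 on the abaxial and 95.2 on the adaxial side. Antenna and RBCS genes include near-identical copies, and how the counting split reads between them is not known, so that the values of single LHCB1, LHCB2 and RBCS genes are uncertain.

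The differences within the list ran to 3.07 for LHCB2.3, an antenna protein of photosystem II, which had 1183, 6033 and 7779 counts in the leaf tip and 148, 504 and 1520 in the petiole (SE 0.05, adjusted p = 4.27e-64). Its lowest leaf tip samples were those of 300 min, when it averaged 1573 ± 284 in leaf tips, 174 ± 46 on the abaxial and 446 ± 80.3 on the adaxial side (SD, n = 4). LHCA6, an antenna protein that links photosystem I to the NDH complex, had 417, 581 and 777 counts in the leaf tip and 32.3, 99.6 and 174 in the petiole, without overlap. RBCS1A had 30808, 40731 and 46111 counts in the leaf tip against 8190, 17087 and 30413 in the petiole, and its difference of 1.25 was among the smallest of the list. RBCS2B had 2746, 5440 and 8222 counts in the leaf tip and 141, 1133 and 3872 in the petiole, with medians of 393 on the abaxial and 2544 on the adaxial side. The leaf tip was above the adaxial side and the adaxial side above the abaxial side for 46 of the 47 genes.

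The upstream sequences of the members with the largest differences in the photosystem and xylem lists are shown as a description. They are the 250 bases before the annotated start of 4 genes of the photosystem, antenna and RBCS list and 2 xylem genes. They come from the RefSeq TAIR10.1 assembly and are written on the strand of the gene. Capitals mark the motifs searched, which were the G-box CACGTG, the I-box core GATAAG, the AC elements ACCTACC and ACCAACC, and TATAAA, each on both strands. LHCB2.3 lies downstream of chr3:10255656-10255905 (+ strand), LHCB1.4 of chr2:14524357-14524606 (+ strand), LHCA6 of chr1:6612380-6612629 (+ strand), RBCS2B of chr5:15382072-15382321 (- strand), the fasciclin-like protein gene FLA12 of chr5:24326828-24327077 (- strand) and the xylem cysteine peptidase gene XCP1 of chr4:16810232-16810481 (+ strand).
LHCB2.3: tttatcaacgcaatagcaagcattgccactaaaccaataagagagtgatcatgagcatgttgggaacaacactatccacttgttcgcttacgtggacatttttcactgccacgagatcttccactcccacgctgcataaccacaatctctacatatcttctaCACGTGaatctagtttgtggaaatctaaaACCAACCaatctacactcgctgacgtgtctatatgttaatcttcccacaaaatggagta
LHCB1.4: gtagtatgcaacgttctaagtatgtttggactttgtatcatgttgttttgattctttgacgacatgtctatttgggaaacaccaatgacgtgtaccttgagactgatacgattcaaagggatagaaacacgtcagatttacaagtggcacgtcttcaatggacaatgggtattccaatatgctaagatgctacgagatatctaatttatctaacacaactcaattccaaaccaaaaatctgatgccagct
LHCA6: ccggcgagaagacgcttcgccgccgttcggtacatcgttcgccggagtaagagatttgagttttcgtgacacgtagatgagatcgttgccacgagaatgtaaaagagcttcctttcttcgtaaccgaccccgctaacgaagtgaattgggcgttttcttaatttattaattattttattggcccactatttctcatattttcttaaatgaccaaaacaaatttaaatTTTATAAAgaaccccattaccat
RBCS2B: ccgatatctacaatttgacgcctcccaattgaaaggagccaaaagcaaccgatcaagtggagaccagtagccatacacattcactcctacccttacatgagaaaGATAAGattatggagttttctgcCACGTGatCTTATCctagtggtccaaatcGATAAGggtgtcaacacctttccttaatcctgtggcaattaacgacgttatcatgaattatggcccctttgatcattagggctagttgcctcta
FLA12: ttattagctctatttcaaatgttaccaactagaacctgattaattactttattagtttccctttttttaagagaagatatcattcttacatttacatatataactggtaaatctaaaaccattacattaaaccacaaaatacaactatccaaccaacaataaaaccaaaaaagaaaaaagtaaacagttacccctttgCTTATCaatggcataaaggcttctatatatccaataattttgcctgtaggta
XCP1: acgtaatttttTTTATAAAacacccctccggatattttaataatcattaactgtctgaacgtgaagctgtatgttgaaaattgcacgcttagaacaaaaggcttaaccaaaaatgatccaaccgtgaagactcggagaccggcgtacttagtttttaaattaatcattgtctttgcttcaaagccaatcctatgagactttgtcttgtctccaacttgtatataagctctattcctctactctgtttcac

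RBCS2B held a G-box that began 123 bases before the start, with I-box cores on either side of it at 146, 115 and 94 bases, and LHCB2.3 held a G-box at 88 bases and an AC element at 59 bases. LHCB1.4 held none of the motifs in this window, although it was the second in the list by difference. Over windows of 250 bases before to 50 after the start, the G-box was in 17 of the 47 promoters of the photosystem list (36.2%) and in 7.79% of all 26711 promoters. The I-box core was in 20 of the 47 (42.6%) and in 14.6% of all promoters. In the promoters of genes called higher, the shares were 10.7% for the G-box and 20.6% for the I-box core, and in those of genes called lower they were 8.07% and 12.3%. Called genes are a part of the genes tested, whose promoters had shares of 8.80% and 14.8%. The AC elements, known from genes of lignin synthesis, were in 9 of 17 promoters of that list (52.9%), in 2 of 36 of the xylem list and in 4.60% of all. TATAAA matched on both strands with overlapping letters in LHCA6 and XCP1. A match is a description of the sequence only.

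The carbon pathways that depend on the photosystems differed in the same direction. In the Calvin cycle list, 13 of 17 genes were called higher and 0 lower (median 1.58), and in the photorespiration list 10 of 12 and 0 (median 1.55). CP12-2, a small regulator of the Calvin cycle, had 519, 645 and 880 counts in the leaf tip and 48.5, 130 and 287 in the petiole, with no overlap. CAT2, the catalase that removes the hydrogen peroxide of photorespiration, had 304, 1188 and 1918 counts in the leaf tip and 15.7, 141 and 602 in the petiole, and overlapped. In chlorophyll synthesis 10 of 17 genes were called higher and 0 lower (median 1.28). The late enzyme PORC differed by 2.32 and the first committed enzyme HEMA1 by 1.81, whereas GSA1 (0.19) and HEMB1 (0.02) of the early steps were not called. Of 104 tested genes of the chloroplast genome, 60 were called higher and 0 lower, and of 29 mitochondrial ones neither direction had a call. Since the libraries were made from polyadenylated RNA, reads of organelle genes are few and may not follow their RNA level.

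Sugar metabolism and export showed single genes with far larger differences than the pathway. Of 22 genes for starch and sucrose metabolism, 8 were called higher and 2 lower (median 0.76). SPS4F, a sucrose phosphate synthase, had 101, 256 and 405 counts in the leaf tip and 0.701, 4.73 and 12.5 in the petiole, a log2 difference of 5.53 (SE 0.12), while its isoform SPS1F differed by 0.54. FBP, the cytosolic fructose bisphosphatase of sucrose synthesis, had 707, 814 and 996 counts in the leaf tip and 48, 125 and 284 in the petiole. Both lay without overlap. The beta-amylase BAM5 went the other way, with 0, 3.27 and 34.1 counts in the leaf tip against 24.7, 65.1 and 223 in the petiole.

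Phloem markers divided into 8 of 20 called higher and 8 called lower. Those called higher included SWEET11. SWEET12, a close homologue, had 27.8, 48.6 and 115 counts in the leaf tip and 0, 0 and 3.83 in the petiole. SUC2, the sucrose importer of companion cells, had 391, 480 and 612 counts in the leaf tip and 23, 55.1 and 96.8 in the petiole. SWEET13, the plasma membrane proton pump AHA3, the phloem lectin PP2-A1, the potassium channel AKT2 and the phloem identity factor APL were the others called higher, with differences of 1.12 to 4.11. Among those called lower, SEOA, a filament protein of sieve elements, had 42.8, 71.8 and 91.7 counts in the leaf tip against 79.5, 245 and 318 in the petiole, which overlapped slightly. OPS, SMXL4, SMXL5 and BRX, known from early protophloem, and CALS7, the callose synthase of sieve plates, had differences of -1.14 to -1.73. The median log2 difference of the list was -0.41, with 9 positive and 11 negative differences. The summed counts, to which abundant genes contribute most, were 2238 to 2833 in the leaf tip and 485 to 1452 in the petiole. Sum and median thus went in opposite directions.

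Xylem and secondary wall genes were lower in the leaf tip throughout the list. Of 32 tested, 20 were called lower and 0 higher, all 32 differences were negative, and the median was -1.28. The summed counts of the 36 loci were 275 to 453 in the leaf tip and 477 to 1405 in the petiole, without overlap. FLA12 had 0, 5.92 and 16 counts in the leaf tip and 18.4, 44.5 and 82.2 in the petiole, and was the only member without overlap. XCP1 had 7.99, 18.9 and 31.8 counts in the leaf tip and 24.2, 127 and 204 in the petiole. CESA8, a cellulose synthase of the secondary wall, differed by -1.71 and CESA7 by -1.53, while CESA4 (-0.94) missed the fold limit. Master regulators were also among those called, with VND7 at -1.66 and MYB46 at -1.56. In lignin synthesis 2 of 17 genes were called higher and 2 lower, which is near the shares of 11.5% and 14.3% over all genes, and the median was 0.08, or -0.28 when scaled to total reads on genes. Cambium and vascular patterning genes were called lower in 4 of 13 cases and higher in 0, led by WOX4, a cambium regulator, with 0, 6.35 and 13.5 counts in the leaf tip and 9.94, 31.7 and 48.9 in the petiole.

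Markers of the surface cell types gave a mixed picture. Guard cell markers had the highest median of all lists, 2.52, with 9 of 10 called higher and 0 lower, and their summed counts were 627 to 866 in the leaf tip and 66.2 to 332 in the petiole. KAT1, a potassium channel that opens stomata, had 112, 157 and 202 counts in the leaf tip and 3.65, 16.2 and 37.4 in the petiole. MYB60, a guard cell factor, had 86.8, 117 and 159 in the leaf tip and 1.37, 21.1 and 67.3 in the petiole, and the adaxial petiole (median 45.1) was above the abaxial (8.19). Of 8 genes of the stomatal lineage, 2 were called higher, the peptide genes STOMAGEN (1.56) and EPF1 (1.22), and 4 lower. SPCH, BASL, EPF2 and POLAR were those called lower, at medians of 0 to 1.92 counts in the leaf tip, and the adaxial petiole held the most of each. Against the abaxial side alone, 2 of the 8 were called higher and 0 lower (median 0.12). Against the adaxial side 0 were called higher and 6 lower (median -1.95), so the lower calls came from that side. For SPCH, which starts the lineage, the difference was 0.08 from the abaxial and -2.20 from the adaxial side. Of 19 epidermis and cuticle markers, 1 was called higher and 3 lower (median -0.33). Over all genes 11.5% were called higher and 14.3% lower, so the lower calls were near the share of all genes. The one called higher was CER1, an enzyme of wax alkane synthesis, with 36.1, 138 and 265 counts in the leaf tip and 0, 5.37 and 14.5 in the petiole. Of 11 trichome markers 3 were called higher and 2 lower, beside the same shares of all genes. EGL3 differed by -3.56, whereas TRY, an inhibitor of trichome fate, differed by 3.57.

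**Figure D3:**
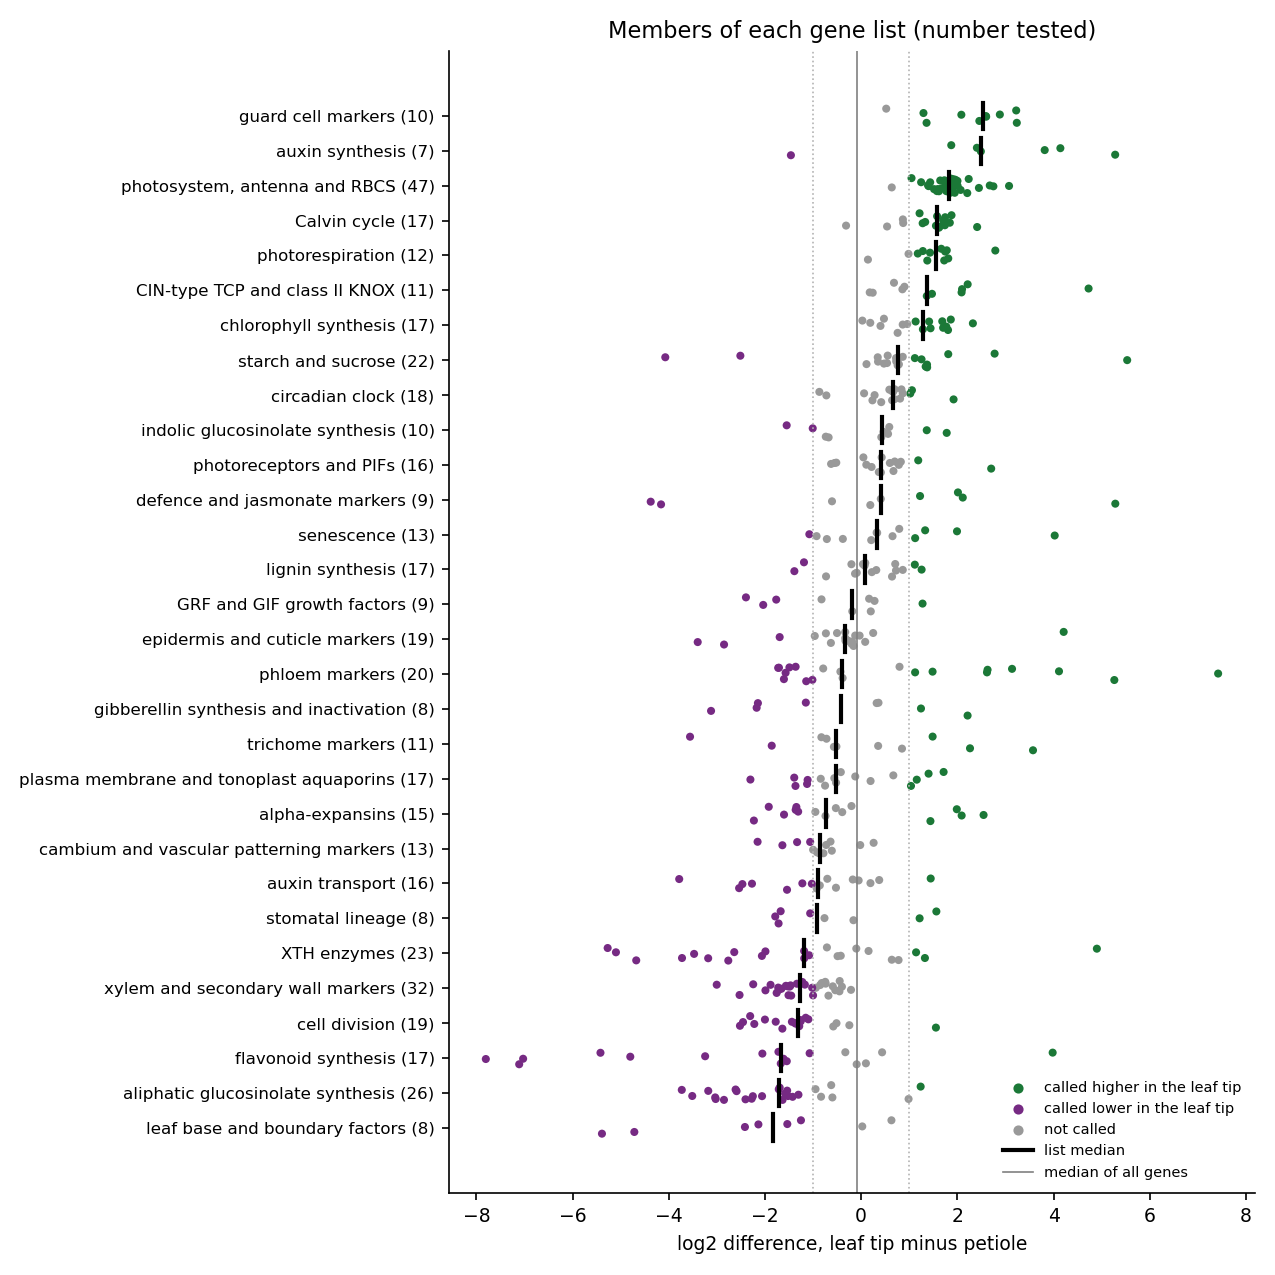
Log2 difference of the leaf tip minus the petiole for each tested member of 30 gene lists, with a point for each gene and a black bar for the median of the list. Green points were called higher and purple points lower in the leaf tip, dotted lines mark the 2-fold limits, and the grey line is the median of all genes at -0.08. By the median of fitted values, guard cell, auxin synthesis and photosystem lists sit highest and leaf base factors, aliphatic glucosinolate and flavonoid synthesis lowest, although the leaf base median is -0.81 with members at the floor set to their bound.

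Factors that set leaf regions separated the sections. Of 11 CIN-type TCP and class II KNOX genes, which promote maturation of the blade, 6 were called higher and 0 lower (median 1.36), and all 11 differences were positive. TCP13 had 16.3, 42.8 and 58.4 counts in the leaf tip and 0, 0 and 5.28 in the petiole, TCP4 had 90.7, 114 and 210 and 8.55, 26.8 and 45.7 in the same order, and neither overlapped. TCP5, close to TCP13 in sequence, had medians of 23.2 in the leaf tip, 0.663 on the abaxial and 13.5 on the adaxial side. BOP2, which represses blade outgrowth in the petiole, was at 0, 0 and 2.72 counts in the leaf tip and 31.3, 50.3 and 78 in the petiole, and was at least 10.6-fold lower. PNF, a BELL homeodomain factor, was at least 8.04-fold lower, with 38.4 to 90.8 counts on the abaxial and 9.69 to 35 on the adaxial side. Of the 16 leaf base and boundary factors 8 passed the filter, of which 6 were called lower and 0 higher. A section was at the floor for 4 of the 8, so this count rests in part on which genes passed. The median of the list was -1.84, and -0.81 with members at the floor set to their bound.

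Cell division genes were called lower in 15 of 19 cases and higher in 1, with a median of -1.32. CDKB2;1, a kinase of mitosis, had 0, 5.94 and 15.7 counts in the leaf tip and 7.95, 33.2 and 57.0 in the petiole. PCNA1, the sliding clamp of DNA replication, had 4.65, 11.2 and 27.1 in the leaf tip and 29.8, 51 and 72.3 in the petiole, the one list member without overlap. The one called higher was the D-type cyclin CYCD3;2, at 1.55, while CYCD3;1 differed by -1.32. Of 9 tested growth factors of the GRF and GIF families, 1 was called higher, 3 were called lower and 5 were not called. Over all genes 11.5% were called higher and 14.3% lower. The median was -0.18, or 0 with members at the floor set to their bound. GRF3 differed by -2.40 and AN3, a GIF coactivator, by 1.28.

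Hormone genes differed between synthesis and transport. In auxin synthesis 7 of 11 genes passed the filter, of which 6 were called higher and 1 lower. The median of 2.49 was the second highest of the lists. A section was at the floor for 4 of these 7, so the count and the median rest in part on which genes passed. TAA1, which makes the auxin precursor indole-3-pyruvate, had 33, 55.8 and 98 counts in the leaf tip and 0, 0.589 and 2.85 in the petiole, a log2 difference of 5.28 (SE 0.10, adjusted p = 1.5e-57). Its homologue TAR2 differed by 2.49. The YUCCA enzymes take the next step. YUC2 had 9.80, 19.2 and 39.9 counts in the leaf tip and 0, 0 and 1.83 in the petiole, at least 8.49-fold higher. YUC8 had 4.33, 15.5 and 27.3 in the leaf tip and 0, 0 and 1.76 in the petiole, at least 6.21-fold higher. YUC6 and YUC9 were also called higher, and YUC3, at 1.91 counts or less in the median of any section, was called lower.

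Auxin transport genes were called lower in 7 of 16 cases and higher in 1. The median was -0.89, or -0.61 with members at the floor set to their bound. LAX3, an auxin importer, had 0, 4.66 and 13.7 counts in the leaf tip and 34.3, 74.2 and 123 in the petiole, without overlap. LAX2, an importer of the same family, had 6.49, 13.2 and 26.1 in the leaf tip and 31.1, 84.7 and 146 in the petiole, also without overlap. The exporter PIN4 was called higher, with 126, 257 and 400 counts in the leaf tip and 58.8, 93.2 and 129 in the petiole, which overlapped by a narrow margin. PIN3 (-0.92) and PIN7 (-0.17), known for roles in tropic bending, were not called. In gibberellin metabolism 8 of 16 genes passed the filter, of which 2 were called higher and 4 lower. A section was at the floor for 2 of these 8, so the counts rest in part on which genes passed. The median was -0.41, or 0 with members at the floor set to their bound. GA3OX1, the last enzyme of synthesis, differed by 2.21, whereas GA20OX1, the enzyme before it, had 3.89, 15.7 and 30.3 counts in the leaf tip, 57.1, 95.8 and 159 on the abaxial and 23.2, 40.1 and 70.2 on the adaxial side. The inactivating enzyme GA2OX1 differed by -3.12 and did not overlap.

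**Figure D4:**
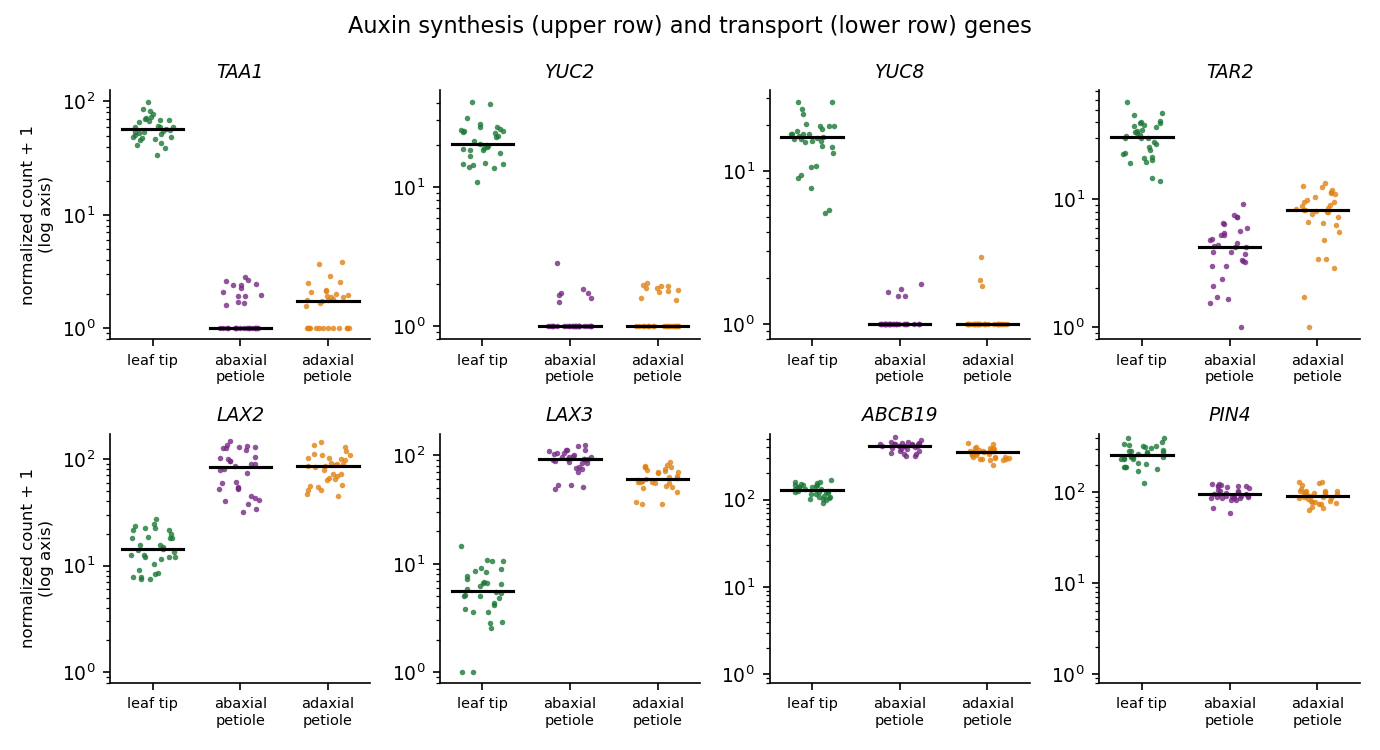
Normalized count plus 1 on a log axis for auxin synthesis genes (TAA1, YUC2, YUC8, TAR2) and auxin transport genes (LAX2, LAX3, ABCB19, PIN4) by section (leaf tip, then abaxial and adaxial petiole), with 32 WL samples each as points and medians as bars. The synthesis genes were higher in the leaf tip, with TAA1 at 33 to 98 there and 0 to 2.85 in the petiole. Of the transport genes, PIN4 was higher and the other 3 were lower in the leaf tip.

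Cell wall enzymes were lower in the leaf tip for most of the xyloglucan endotransglucosylase/hydrolases (XTH), which cut and rejoin xyloglucan during growth. Of 23 tested, 13 were called lower and 3 higher, with a median of -1.18, or -0.71 with members at the floor set to their bound. XTH4 had 24.6, 63.4 and 147 counts in the leaf tip and 827, 2405 and 5315 in the petiole, with a log2 difference of -5.10 (SE 0.06, adjusted p = 9.36e-71). The abaxial side (median 3593) was above the adaxial side (1416), and the highest leaf tip sample was below the lowest of either. XTH17 was at least 8.82-fold lower. XTH31 went against its family, with 229, 343 and 685 counts in the leaf tip and 2.17, 11.1 and 34.1 in the petiole. Among alpha-expansins, which loosen the wall at acid pH, 6 of 15 were called lower and 4 higher. EXPA5 had 102, 145 and 237 counts in the leaf tip and 299, 552 and 1145 in the petiole, whereas EXPA1 had 557, 1649 and 2241 in the leaf tip and 129, 371 and 1110 in the petiole. Of the aquaporins, 4 of 17 were called higher and 5 lower, against 11.5% and 14.3% of all genes.

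Aliphatic glucosinolates are made from methionine as defence compounds of the cabbage family, and 20 of 26 tested genes of their synthesis were called lower, 11 of them without overlap, with a median of -1.70. The regulator MYB29 had 33.5, 62.4 and 101 counts in the leaf tip and 385, 862 and 1326 in the petiole, a log2 difference of -3.73 (SE 0.07). The related MYB28 had 227, 329 and 409 in the leaf tip and 264, 618 and 782 in the petiole, and at -0.83 was not called. Side chain elongation (IMD1, -2.59; MAM1, -2.40), core synthesis (CYP79F1, -2.85; GSTF11, -3.51) and side chain modification (AOP2, -3.18) were all called lower. FMOGS-OX5, a side chain oxygenase, was the one called higher, at 1.24. The petiole sides had almost equal medians for MYB29 (862 on each) and GSTF11 (154 abaxial, 144 adaxial).

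Of 10 indolic glucosinolate genes, whose products come from tryptophan, 2 were called higher and 2 lower, with a median of 0.44. These counts were not far from the shares of 11.5% and 14.3% over all genes. CYP79B2 and CYP79B3, which convert tryptophan in the first step, were the ones called higher, at 1.78 and 1.36, and GSTF9 and UGT74B1 the ones called lower. Of 9 jasmonate and defence markers, 4 were called higher and 2 lower (median 0.41). LOX2, a chloroplast lipoxygenase of jasmonate synthesis, had 659, 1397 and 2852 counts in the leaf tip and 0.940, 42.8 and 305 in the petiole. VSP2, a storage protein gene induced by jasmonate, had 0, 7.95 and 249 in the leaf tip and 25.5, 208 and 453 in the petiole, and overlapped. AOS, an enzyme after LOX2 in jasmonate synthesis, differed by 2.01 and VSP1 by -4.16, while CORI3, named above, differed by 6.46.

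Flavonoid synthesis was called lower in 12 of 17 cases and higher in 1, with a median of -1.67. A section was at the floor for 4 of these 17, so the count rests in part on which genes passed. The median was the same with these members set to their bound. Chalcone synthase (CHS), which opens the pathway, had 7.21, 104 and 320 counts in the leaf tip and 102, 268 and 1359 in the petiole, and chalcone isomerase (CHI) differed by -1.07. The anthocyanin enzyme DFR had 0, 0 and 5.82 counts in the leaf tip and 22.1, 216 and 1422 in the petiole, at least 68.3-fold lower. LDOX, the next enzyme, had 0, 0 and 17.1 in the leaf tip and 40.6, 261 and 1473 in the petiole. Both were among the 12 largest negative differences, for which lack of overlap was part of the choice. The regulator TT8 was at least 12.4-fold and the glycosyltransferase gene UGT79B1 at least 10.3-fold lower, and TT19, which carries anthocyanins to the vacuole, differed by -7.11. Each was highest on the abaxial side, where DFR had a median of 477 against 93.1 on the adaxial side. The flavonol enzyme FLS1 (0.44) was not called. MYBL2, a repressor of anthocyanin synthesis, was the one called higher, with 208, 498 and 678 counts in the leaf tip and 8.54, 27 and 84 in the petiole.

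Of 16 photoreceptors and PIF factors, 2 were called higher and 0 lower (median 0.42), a share of higher calls near the 11.5% of all genes. PIF7, a factor known for the response to shade, had 240, 527 and 658 counts in the leaf tip, 17.3, 38.2 and 60.3 on the abaxial and 89.9, 141 and 199 on the adaxial side. The blue light receptor CRY1 had 306, 558 and 696 counts in the leaf tip and 191, 236 and 278 in the petiole. PHYB, the main red and far-red receptor, differed by 0.22. Of 18 clock genes 3 were called higher and 0 lower, with PRR9, a morning-expressed repressor, at 1.92. Here too the share of higher calls was not far from that of all genes. The difference changed over time for 8 of the 16 photoreceptor and PIF genes and 6 of the 18 clock genes, against 15.1% of all genes. Among 13 tested senescence genes 4 were called higher and 1 lower, the largest being NAP, a NAC factor of leaf ageing, at 4.02.

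Against each petiole side in the same fit, 2782 genes (14%) were higher and 3094 (15.5%) lower in the leaf tip than in the abaxial petiole, and 1852 genes (9.30%) were higher and 2805 (14.1%) lower than in the adaxial petiole. Both contrasts share the leaf tip samples. The photosystem list had medians of 2.15 against the abaxial and 1.47 against the adaxial side, the guard cell markers 3.42 and 1.53 and the flavonoid list -2.13 and -1.20. For aliphatic glucosinolates the medians were -1.62 and -1.84, and for auxin synthesis 2.93 and 2.06. Only 9 genes were called in opposite directions against the sides. SWEET1, a glucose transporter, and MYB111, a factor of flavonol synthesis, were among them. MYB111 had medians of 5.31 counts in the leaf tip, 1.08 on the abaxial and 12.5 on the adaxial side, and its log2 difference was 1.4 against the abaxial and -1.20 against the adaxial side.

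The difference between leaf tip and petiole changed over time for 3007 genes (15.1%) by an F test over the 8 time points (adjusted p below 0.05), and for 1570 of them its range was at least 1 on the log2 scale. In 1590 of the 3007 genes the time point farthest from the median difference was 300 min. Without the samples of 300 min, 993 genes passed the threshold, and with reads thinned to the smallest library 1475 did. Time after the start also is time of day, and these cannot be told apart. With a single time point taken alone, at least 2254 genes were called higher and at least 2649 lower.

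The genes with the smallest p over time were GRP7, UPM1, AT1G19960, ASN2, GLT1 and PME3. GRP7, an RNA-binding protein under the clock, averaged 75.2 ± 13.9 counts in the leaf tip, 225 ± 40.9 on the abaxial and 266 ± 18.7 on the adaxial side at 60 min, and 13127 ± 1061, 8929 ± 706 and 9492 ± 288 at 300 min (SD, n = 4). It rose in all sections, and its log2 difference was -1.69 at 60 min and 0.51 at 300 min. ASN2, an asparagine synthetase, averaged 217 ± 38.2 counts in the leaf tip, 1552 ± 118 on the abaxial and 830 ± 61.9 on the adaxial side at 60 min, and 277 ± 47.6, 338 ± 50.4 and 363 ± 60.0 at 300 min. Here the leaf tip stayed near its level and the petiole came down to it. GLT1, a glutamate synthase, had log2 differences of -1.31 at 60 min and 0.17 at 300 min, and UPM1, an enzyme of siroheme synthesis for nitrite and sulfite reduction, of -1.37 and 0.69. AT1G19960, annotated as a transcription factor, differed by -1.49 at 60 min and 1.32 at 300 min. PME3, a pectin methylesterase, stayed lower in the leaf tip throughout, with -2.53 at 60 min and -1.07 at 300 min. Of the listed genes, the evening clock gene TOC1 averaged 22.9 ± 9.28 counts in the leaf tip, 46.8 ± 9.03 on the abaxial and 49.3 ± 4.54 on the adaxial side at 60 min and 401 ± 44.2, 239 ± 15.9 and 303 ± 20.2 at 300 min. CHS averaged 303 ± 20.9 counts in the leaf tip, 589 ± 108 on the abaxial and 278 ± 31.4 on the adaxial side at 60 min. At 300 min it averaged 12.8 ± 4.59, 411 ± 143 and 161 ± 27.2 in the same order. The leaf tip was thus near the adaxial side at 60 min and below both sides at 300 min.

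**Figure D5:**
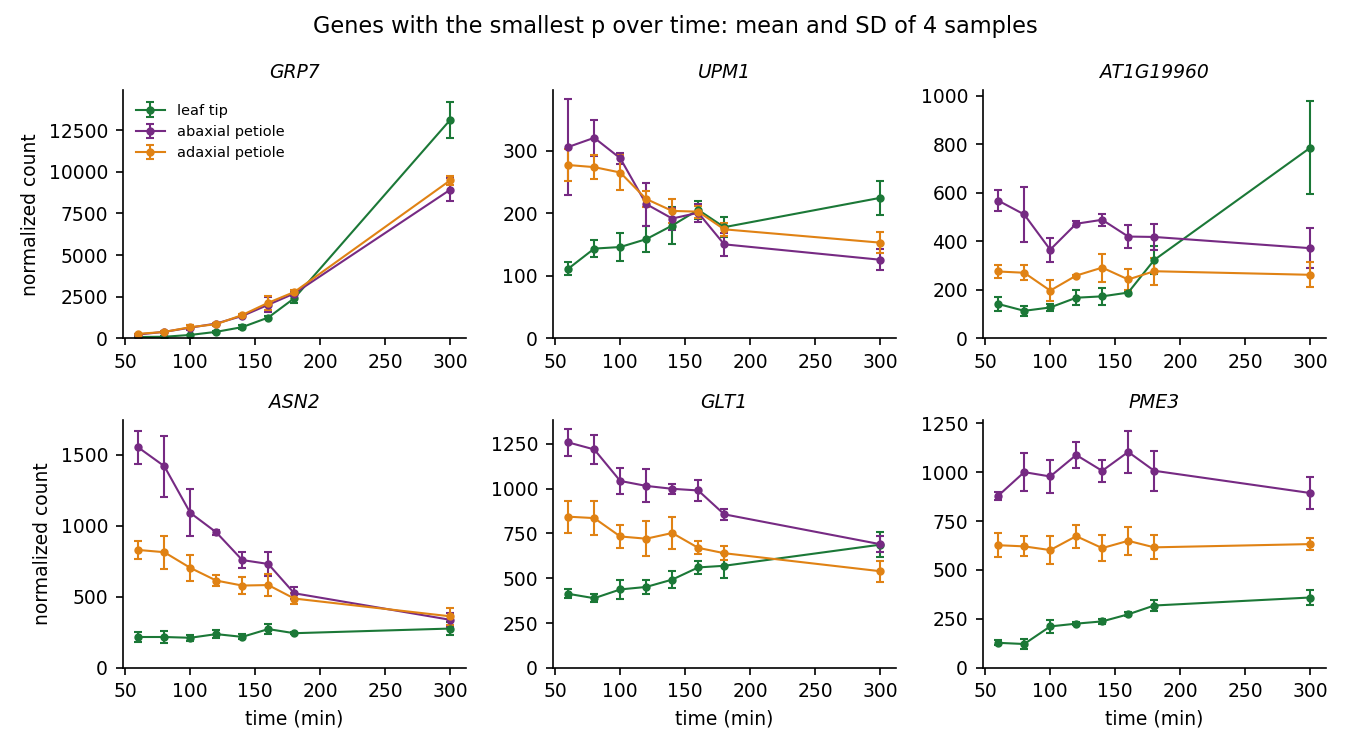
Mean normalized count with the SD of 4 WL samples against time (60 to 300 min) by section (leaf tip, then abaxial and adaxial petiole) for the 6 genes with the smallest p over time. The leaf tip was below both petiole sides at 60 min for all 6 genes and above both at 300 min for GRP7, UPM1 and AT1G19960. ASN2 declined in the petiole while the leaf tip stayed between 212 and 277.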

How the data were processed

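RNA was sequenced by the authors with the BrAD-seq method. Per the labels, FastQC, STAR, Picard, HTSeq and DESeq were used with TAIR10, without versions. The deposited signal values cover 33602 loci and 204 samples and are read counts that the authors normalized with DESeq2 size factors. Dividing by the value of 1 read gave whole reads for 100% of values (tolerance 0.001). Bounds against the floor cover counting error only, since reads carried no molecular identifiers. How reads that match several genes were treated is not given in the sources used here. Symbols and promoters came from RefSeq TAIR10.1, in which 32835 loci were found.

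WL samples were grouped by section and time point from the labels, which number 4 replicates that the methods of the study call biological. Log2 values of the normalized count plus 1 were fitted with limma 3.58.1 in R 4.3.3, with a mean for each section and time point, for 19920 genes with a mean of at least 1. The contrast was the leaf tip minus the mean of both petiole sides over the time points. Tests were two-sided with Benjamini-Hochberg adjustment, and a log2 difference understates the change of low genes. The test was checked on simulated data. Among 144 pairs of samples of the same group, the squared difference was at least 1.41 times that of counting error, so that none was a repeat of the same library. Alternatives were other pseudocounts, filters, scalings and replicates, edgeR 4.0.16 and thinned reads. Named genes were list members, the 12 largest differences in each direction among nuclear genes whose mean reached 20 and whose sections did not overlap, the 6 smallest p over time with a range of at least 1, and the 5 widest gaps in each direction. Members and lists were chosen with earlier results of these data known. Tables and figures used Python 3.11.15, pandas 2.3.3 and matplotlib 3.10.9.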

Additional observations from a re-analysis of the deposited data

Results flagged for a closer look

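The depth of the abaxial petiole at 120 min included 1 library that stood apart, replicate 3 with 4364837 reads on genes, against 2393808 to 2718667 in the other 3. Depth and the first principal component were looked at in 48 sets of 4 samples, of which chance flags about 1 in 20, and this was the only one.

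The leaf tip to petiole difference varied over the 8 time points by the F test for the 6 genes named for it. Its log2 range was 2.62 for GRP7, 2.06 for UPM1, 3.03 for AT1G19960, 2.05 for ASN2, 1.54 for GLT1 and 1.64 for PME3.

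The WL samples of 40 min, 3 of the leaf tip and 3 of the petiole (1 abaxial and 2 adaxial), entered no test because no petiole side had more than 2. In them, 24 of the 24 genes with the largest differences did not overlap between the leaf tip and the petiole, in the same direction as at 60 to 300 min. These genes were chosen for large differences without overlap at 60 to 300 min, so this outcome was nearly fixed in advance. It is a description and no independent test, and the share over all genes was not computed. At 40 min SWEET11 had 222 to 440 counts in the leaf tip and 0.506 to 1.31 in the petiole. LDOX had 0 to 1.64 in the leaf tip and 41.7 to 470 in the petiole.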

How the results depend on the processing

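Scaled to total reads on genes, 1487 genes were higher and 4502 lower, and the median of all genes shifted to -0.43. A pseudocount of 5 gave 1713 genes lower, and a mean of at least 10 gave 1898 lower. A difference beyond 2 left 671 higher and 764 lower, and an adjusted p with no minimum gave 7600 higher and 9335 lower. Leaving out a replicate gave 2282 to 2322 higher and 2857 to 2886 lower. Calls over time fell to 1767 to 2217 when a replicate was left out (1767 without replicate 3 and 1838 without replicate 4), to 993 without 300 min and to 1475 with thinned reads, the last chosen after seeing the data. The cause was not tested. All other settings stayed within 1.5 times.

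Replicate numbers were not taken as pairs, since the deviations of same-numbered samples of a time point correlated above 0.1 in 47 of 96 pairs, not in all. Their median was 0.17 between the petiole sides, 0.077 between leaf tip and abaxial and 0.096 between leaf tip and adaxial side, against -0.036 for other numbers, and a sample correlated best with its own number in 84 of 96 cases, a hint from the data and not the design. The replicate block kept the counts of 2289 higher and 2854 lower and gave 3571 calls over time, or 3878 with a block within time points. No call among the 520 listed and named genes changed with the block. Every group held all 4 replicates, so the block leaves each log2 difference as it was. The unchanged calls and counts were thus nearly fixed in advance. Of the 520 genes, SPCH (0.077 against the abaxial side) and MYB111 (-1.20 against the adaxial side) reversed when a single side was used. None reversed under the other settings, but calls were lost or gained. Scaling to total reads on genes lost 31 and gained 32 calls, and a pseudocount of 5 lost 43. The adaxial side alone lost 42 and gained 11, and the abaxial side alone lost 14 and gained 33. Each remaining setting lost at most 6 and gained at most 13. All 24 genes with the largest differences kept their calls in each of 15 settings. They were chosen from these samples for differences far beyond the limit, so this too was nearly fixed in advance. Of 32 list medians, that of lignin synthesis changed sign when scaled to total reads on genes (-0.28) and that of glucosinolate transport and breakdown on centring (0.03).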
